A study of Mus musculus with 2 samples.

Results

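Cluster 4 of the interstitial cells of the infarcted mouse ventricle, which the study names T cells together with its clusters 7, 8 and 10, was compared between 2 genotypes. The members described here are all genes in the deposited genotype comparison of cluster 4, 450 genes of the 6477 distinct genes listed across the 18 cluster comparisons. One library, the control, came from PostnMCM hearts, and the other came from Yapfl/fl;Wwtr1fl/+;PostnMCM hearts, in which Yap1 is floxed on both alleles and Wwtr1, encoding TAZ, on 1 of them. Both groups were adult mice that carried the tamoxifen-inducible Cre recombinase MerCreMer at the Postn locus and an R26-eGFP transgene, had myocardial infarction (MI), and ate chow with 0.4 g/kg tamoxifen citrate from the day of surgery. Per the labels, ventricles were digested 6 days after injury and viable cells were sorted, while the methods of the study give a collection 1 day later. The periostin promoter directs Cre to activated fibroblasts, so the T cells measured here lie outside its expected site of action. There was 1 library per genotype, the number of animals behind each library was not given in the sources used here, and genotype and library cannot be told apart.

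T cells recognise peptides on MHC molecules through a receptor made of clonotypic chains and the CD3 subunits, helped by the coreceptors CD4 and CD8. They mature in the thymus, leave it along a gradient of sphingosine-1-phosphate, and recirculate as naive cells that are kept alive by interleukin-7. After MI they enter the injured ventricle, where CD4+ and regulatory T cells are known to influence healing and scar formation.

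The measure was the share of cluster 4 cells with a corrected count above 0 for a gene in each library, given in percent, and differences are the Yapfl/fl;Wwtr1fl/+;PostnMCM library (here the depleted-labelled library) minus the control, in percentage points. A gene is listed only if the authors' comparison found a difference of at least 0.25 in log2 fold change and at least 25% of cells in one library, so every member had already been chosen for a difference and a gene that is not listed has no value. The shares came without the number of cells of each library in the cluster and without their counts, so the depth behind a share is unknown and no interval or detection limit is given. With no replicate, no difference below was tested, and each describes these 2 libraries. Fewer cells with a count and less RNA per cell cannot be told apart in a share.

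Of the 450 genes, 291 (64.7%) were detected in a larger share of cells in the depleted-labelled library, 103 in a smaller share and 56 in exactly the same share. A difference of at least 10 points was seen upward for 250 genes (55.6% of those listed) and downward for 57 (12.7%). The median difference was 12.15 points, the extremes were 48.4 and -32.3 points, and 56 genes lay 20 points or more higher against 15 that lay as far lower. The level of the gene sets what its share can show. All 121 genes below 25% in the control library were higher, which the listing limit of 25% fixes. At the other end, 63 genes stood at 99% or more in both libraries, and 56 of these at exactly 100% in both, so that their shares leave little or no room upward. In the plot of both shares by gene, few points lie along the line of equal shares outside the upper right corner, since listed genes had passed the limit on size.

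**Figure D1:**
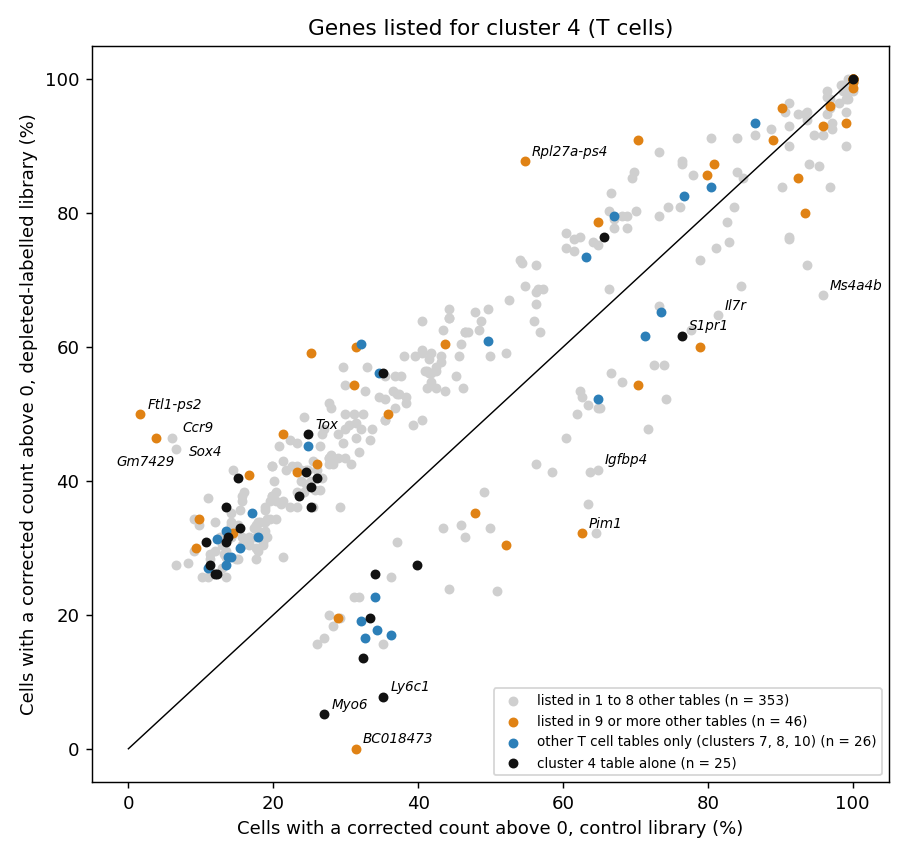
Share of cluster 4 cells with a corrected count above 0 in the control library (x axis, %) against the depleted-labelled library (y axis, %), 1 point per listed gene, with the line of equal shares. Black points mark the 25 genes listed for cluster 4 alone, blue points the 26 listed otherwise only for T cell clusters, and orange points the 46 listed in 9 or more other tables. Ftl1-ps2 at 1.6% and 50% and BC018473 at 31.4% and 0.0% are the points nearest to the axes.

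The cluster carried the T cell label in its receptor genes. Cd3g, a CD3 subunit, was detected in 91.2% of control cells and 96.5% of cells of the depleted-labelled library, and Cd3e, another CD3 subunit, in 80.5% and 83.9%. Bcl11b, a transcription factor that T cells need to keep their identity, was at 86.5% and 93.5%, and Tcf7, which encodes TCF-1, at 88.7% and 92.6%. No neutrophil, erythroid or platelet, fibroblast or cardiomyocyte marker of the lists examined was listed, and neither were mitochondrially encoded genes. A marker found at a similar level in both libraries would also be unlisted, so this absence does not measure the purity of the cluster. Yap1, Wwtr1, Postn and the reporter genes were not listed either, so these cells offer no check of the genotype label, and the Yapfl/fl;Wwtr1fl/+;PostnMCM library is named by its label throughout.

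Transcripts used as markers of other cell types were detected too. Lyz2, the lysozyme of macrophages and neutrophils, was at 93.4% in the control library and 80.0% in the depleted-labelled library. Of 17 B cell and MHC class II markers 4 were listed, and their shares ran from 68.2% to 91.2% in the control library and from 54.8% to 76.1% in the other. These were H2-Ab1 (78.9% and 60%), H2-Aa (73.9% and 57.4%), H2-Eb1 (68.2% and 54.8%) and Cd74 (91.2% and 76.1%), which encode the class II chains and the invariant chain of antigen-presenting cells. All 5 of these transcripts were thus 13.4 to 18.9 points lower in the depleted-labelled library. Pecam1, an adhesion molecule of endothelium, was also lower, at 26.1% and 15.7%, while Plac8, a monocyte marker that lymphocytes also express, was at 29.2% and 36.1%. Whether these shares reflect RNA from cells of another type or expression by the T cells themselves was not tested. Their part in the differences below was not tested either, and the depth of the cells is unknown.

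Genes of naive and central memory T cells were mostly lower. Of 16 such genes 9 were listed, 7 lower and 2 higher, with a median difference of -14.7 points beside 12.15 points over all listed genes. Ly6c1, a GPI-anchored surface protein of memory and some naive T cells, was detected in 35.2% of control cells and 7.8% of cells of the depleted-labelled library, 27.4 points lower, although its reads may be shared with the closely related Ly6c2. Igfbp4, an insulin-like growth factor binding protein that marks naive CD4+ cells, stood at 64.8% and 41.7%. Il7r, the receptor for the survival cytokine interleukin-7, was at 81.4% and 64.8%. Bcl2, the antiapoptotic protein induced by that cytokine, was at 64.8% and 50.9%. Dapl1, a transcript of resting T cells, was at 32.7% and 16.5%. S1pr1, the sphingosine-1-phosphate receptor that lets T cells leave lymphoid organs, was at 76.4% and 61.7%, and Klf2, the transcription factor that drives S1pr1, at 99.1% and 90%. The 2 higher members differed by less than 10 points, Tcf7 as given above and Satb1, a chromatin organiser of developing T cells, from 84.0% to 91.3%. Ccr7, a lymph node homing receptor, and Lef1 were not listed, so the cluster has no value for them.

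Receptor, coreceptor and signalling genes had a median difference of 12.9 points, next to the 12.15 points of all listed genes. Of 36 genes 16 were listed, 15 higher and 1 lower, 13 of them by at least 10 points upward, beside 55.6% of all listed genes. Themis, an adaptor needed for positive selection in the thymus, was at 21.4% in the control library and 43.0% in the depleted-labelled library, and Cd27, a costimulatory receptor, at 35.5% and 55.7%. The coreceptor chain Cd8b1 was at 13.2% and 31.3%, and Cd4 at 41.8% and 56.1%. Both coreceptors were therefore higher in the same library by 18.1 and 14.3 points. Among signalling proteins, the adaptor Lcp2 (SLP-76) was at 34.6% and 52.6%, the kinase Lck at 63.2% and 73.5%, the adaptor Lat at 67.0% and 79.6%, and the CD45-associated protein Ptprcap at 73.3% and 89.1%. Cd28, the main costimulatory receptor, was at 49.7% and 60.9%, and Cd2, an adhesion receptor, at 56.6% and 68.7%. The exception was Dgka, the diacylglycerol kinase that damps receptor signalling, at 71.4% and 61.7%.

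**Figure D2:**
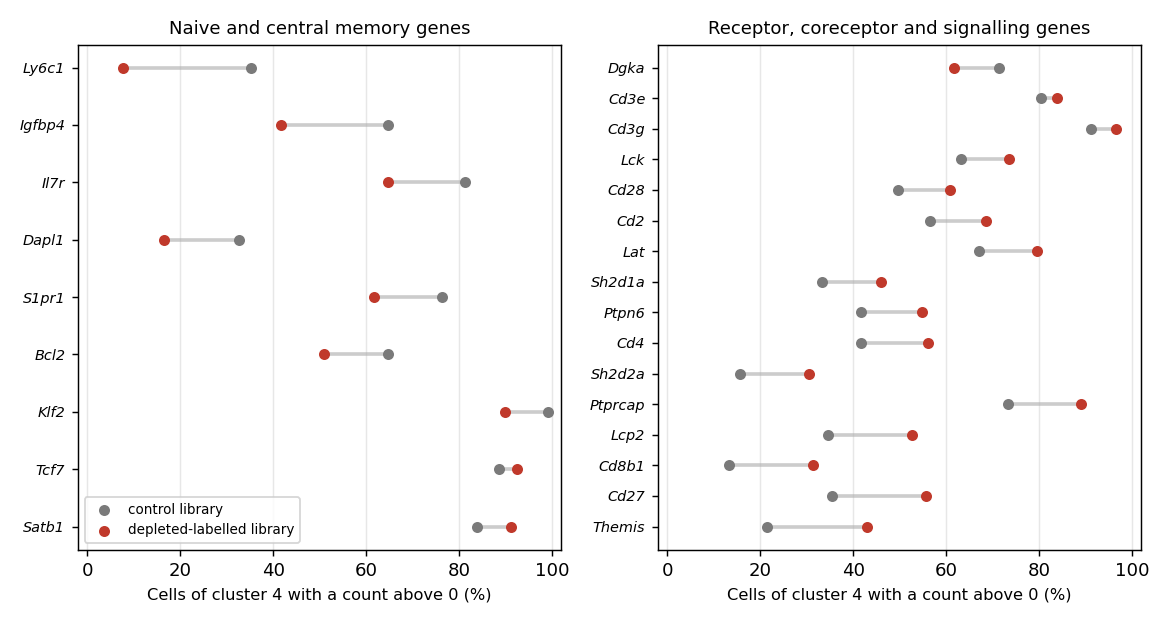
Share of cluster 4 cells with a count above 0 (x axis, %) for the 9 listed naive and central memory genes (left) and the 16 listed receptor, coreceptor and signalling genes (right). Grey points are the control library and red points the depleted-labelled library. On the left 7 genes have the red point below the grey one, on the right only Dgka does.

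The 15 genes with the largest higher shares included pseudogenes and genes of several functions. Ccr9 (chromosome 9, 123507181 to 123613395, GRCm39), the receptor for the thymic and intestinal chemokine CCL25, was detected in 6.0% of control cells and 46.5% of cells of the depleted-labelled library. Sox4 (chromosome 13, 29132902 to 29137696), an HMG-box transcription factor of lymphocyte progenitors, stood at 6.6% and 44.8%. Both were among the 15 largest differences upward, at 40.5 and 38.2 points. The group also held Slc38a2, a neutral amino acid transporter (31.4% and 60%), Ddit4, an inhibitor of mTORC1 signalling (11% and 37.4%), Cbx1, a heterochromatin protein (32.1% and 60.4%), and Hdac7, a histone deacetylase of developing T cells (24.2% and 49.6%). Ramp1, a subunit of the receptor for calcitonin gene-related peptide, was at 29.6% and 57.0%, Rai1, a nuclear regulator, at 14.5% and 41.7%, and the predicted gene Gm4258 at 25.2% and 59.1%. Trim12a, a relative of the restriction factor TRIM5, was at 21.4% and 47.0%, the RNA-binding protein Msi2 at 15.1% and 40.4%, and H2-T10, a nonclassical MHC class I gene, at 9.1% and 34.3%. The other 3 of the 15 were pseudogenes, which are described below.

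Some listed genes are used by T cells that develop in the thymus. They were picked for description after their values were seen, so their common direction is no finding about such a group. Besides Ccr9, Sox4, Themis, Cd4 and Cd8b1, they include Tox, a transcription factor of CD4+ lineage choice that also marks exhausted T cells (24.8% and 47.0%), Tcf12, an E protein of early T cell development (15.1% and 33.5%), and Id3, an inhibitor of E proteins (19.2% and 31.7%). Cluster 4 lists none of Rag1 and Rag2, which recombine receptor genes, Dntt, which adds nucleotides at receptor joints, the pre-T cell receptor chain Ptcra and Cd24a. In cluster 10, control library first, Rag1 was at 54.5% and 77.4% and Dntt at 90.9% and 96.2%. Ptcra was there at 27.3% and 49.5%, and Cd24a at 81.8% and 78.0%. Rag1 was also listed for clusters 6 (63.0% and 72.4%) and 9 (41.2% and 65.1%). Themis was also listed for cluster 9, at 94.1% in the control library and 64.6% in the depleted-labelled library, and for cluster 10, at 63.6% and 74.2%. Ccr9 was listed for 3 other clusters, at 36.3% and 62.5% in cluster 8, 63.0% and 64.8% in cluster 6 and 96.9% and 100% in cluster 15. Sox4 was listed for clusters 5, 6 and 10 and there stood at 63.6% or more in both libraries. Its control share in cluster 4 was the lowest of the 4.

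The 15 genes with the largest lower shares included protein-coding genes of several kinds, noncoding RNAs and a pseudogene. Pim1, a serine/threonine kinase induced by cytokines, was detected in 62.6% of control cells and 32.2% of cells of the depleted-labelled library. Ms4a4b and Ms4a6b, membrane proteins of the MS4A family that modulate T cell signalling, were at 95.9% and 67.8% and at 93.7% and 72.2%. Klf3, a Krüppel-like repressor, was at 63.8% and 41.3%, Lfng, a glycosyltransferase that modifies Notch, at 44.3% and 23.9%, and Resf1, a silencer of retroelements, at 71.7% and 47.8%. The noncoding RNA 5033421B08Rik was at 50.9% and 23.5% and the predicted gene Gm41331 at 64.5% and 32.2%, the largest difference downward (32.3 points). Gimap3, a GTPase of lymphocyte survival, stood at 74.2% and 52.2%, and its relatives Gimap1 (64.8% and 52.2%) and Gimap4 (73.6% and 65.2%) were lower too. No other GIMAP gene was listed.

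Of the 25 genes listed for cluster 4 and in no other table, 17 were higher (68.0%, beside 64.7% of all listed genes), 7 lower and 1 equal, and their median difference was 14.2 points. Being alone in this sense means that the gene passed the authors' limits in this cluster only. It does not show that the difference was absent elsewhere, because a gene outside a table has no value there. The largest lower shares belonged to Ly6c1 and to Myo6, a myosin that moves toward the minus end of actin filaments, which was at 27.0% in the control library and 5.2% in the depleted-labelled library. Tent5c, a noncanonical poly(A) polymerase, was at 32.4% and 13.5%, Klhdc2, a substrate receptor of a ubiquitin ligase, at 33.3% and 19.6%, and Trib2, a pseudokinase, at 39.9% and 27.4%. S1pr1 belonged to this group as well, and the seventh was Gm11346, a pseudogene, at 34.0% and 26.1%.

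The higher genes of this group held a pair of transcription factors of T cell development, Tox and Runx1, the latter at 24.5% and 41.3%. Msi2 had the largest difference of the group, at 25.3 points. Scd2, a desaturase of fatty acid synthesis, was at 13.5% and 36.1%, Ptpn7, a phosphatase of MAP kinases in blood cells, at 10.7% and 30.9%, and Fubp1, a single-strand DNA binding regulator, at 35.2% and 56.1%. Spata13, a guanine nucleotide exchange factor (13.8% and 31.7%), Cops6, a COP9 signalosome subunit (15.4% and 33%), Abhd8 (13.5% and 30.9%) and Atp6v0a2, a subunit of the vacuolar proton pump (11.3% and 27.4%), completed the 10 largest. The remaining 7 were 10 points or more higher as well. Rps27, a ribosomal protein, was at 100% in both libraries, so that its listing rests on a level that the share does not show.

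**Figure D3:**
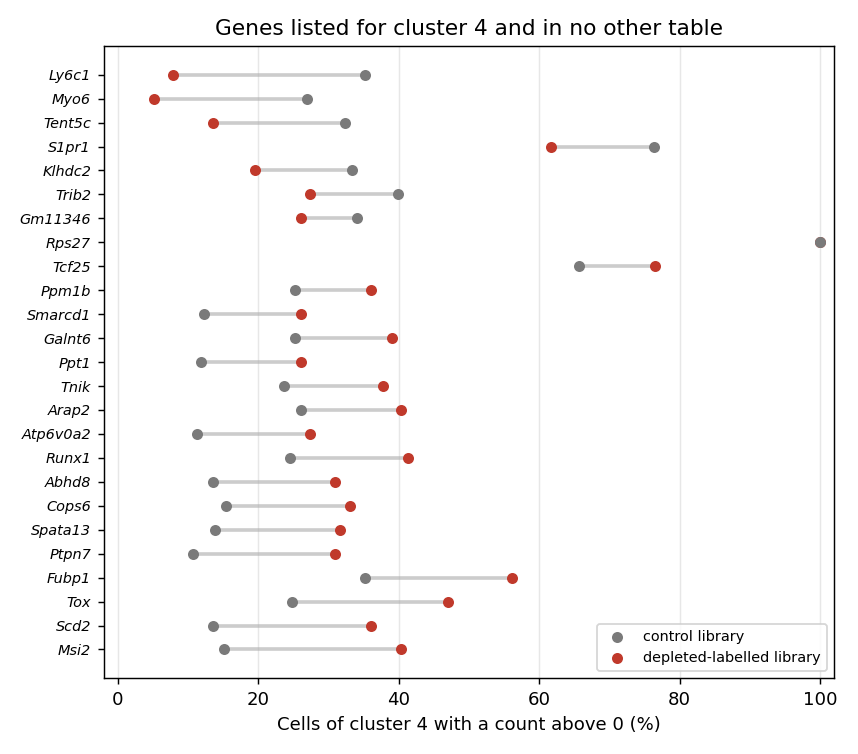
Share of cluster 4 cells with a count above 0 (x axis, %) for the 25 genes listed for cluster 4 and in no other table, ordered by their difference. Grey points are the control library and red points the depleted-labelled library, and the 7 genes at the top have the red point to the left.

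Another 26 genes were listed for cluster 4 and for at least 1 of the other T cell clusters, and in no further table. Of these 18 were higher (69.2%, again near 64.7%) and 8 lower. The tables come from the same 2 libraries, so agreement between them is no replicate. Among the 5 with the largest lower shares were Tnfsf8, the CD30 ligand, at 34.3% and 17.8% in cluster 4, and S1pr4, a sphingosine-1-phosphate receptor of lymphocytes, at 32.1% and 19.1%. Gm30603 was at 36.2% and 17%, and the other 2 were Dapl1 and Gimap1. In cluster 8 Dapl1 was at 56.1% and 31.2% and S1pr4 at 36.8% and 27.1%. The 5 with the largest higher shares were Cbx1, Rsrc2, an arginine- and serine-rich protein (34.6% and 56.1%), Camk4, a calcium-dependent kinase of T cell activation (24.8% and 45.2%), Pan3, a deadenylase subunit (13.5% and 32.6%), and Git2, a GTPase activating protein for Arf (12.3% and 31.3%). Lck, Cd28, Lat and Cd3e also belonged to these 26. In cluster 10 Lck was at 72.7% and 92.5%, Cd28 at 54.5% and 60.8%, and Cd3e at 72.7% and 94.6%. In cluster 8 Cd3e was at 88.9% and 89.6% and Lat at 76.6% and 85.4%. Not all of the 26 kept their direction between clusters. Dgka, lower in cluster 4, was at 18.2% and 34.4% in cluster 10. The Ikaros family member Ikzf3 and the guanylate-binding protein Gbp4 were higher in cluster 4. In cluster 10 Ikzf3 was at 45.5% and 34.4% and Gbp4 at 45.5% and 30.6%, while Gbp4 was at 22.8% and 33.3% in cluster 8.

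Naive genes of cluster 4 had values in the neighbouring T cell clusters where they were listed. Cluster 8 had Igfbp4 at 54.4% and 33.3%, Il7r at 78.9% and 64.6%, Klf2 at 95.9% and 89.6% and Bcl2 at 77.2% and 50%, control library first. Cluster 10 had Bcl2 at 45.5% and 12.4%. Tcf7 was at 87.1% and 89.6% in cluster 8 and at 100% and 99.5% in cluster 10, and cluster 7 listed none of the 9. The whole tables of these clusters ran in different directions. The median difference over all listed genes was -8.5 points in cluster 7 (421 genes), 7.0 points in cluster 8 (543 genes) and 1.8 points in cluster 10 (1691 genes), beside 12.15 points in cluster 4. In all, 284 of the 450 genes were listed for at least 1 of the 3, and 21 for all 3. Control shares took 198 distinct values in cluster 4 and 12 in cluster 10, so that the shares of cluster 10 are far coarser. That cluster was made up mainly of cells of the depleted-labelled library according to the study, so the T cells of both libraries were not divided alike among the clusters. A difference within cluster 4 cannot be told apart from a difference in which T cells were placed there.

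Other gene groups divided within themselves, beside 64.7% of all listed genes higher, 55.6% higher and 12.7% lower by at least 10 points and a median of 12.15 points. Of 28 lymphocyte transcription factors 9 were listed, 7 higher and 2 lower, 4 and 1 of them by at least 10 points, with a median of 7.3 points that lay below that of all listed genes. Over its members at 90% of cells or less in both libraries, the median of this list was 12.5 points. The 9 included Ikzf3, an Ikaros family member, at 11% and 27.0%, Ikzf1, its relative, at 64.2% and 75.7%, and Klf3 and Klf2 as the lower ones. Of 26 adhesion and migration genes 9 were listed, 4 higher and 5 lower (median -0.1 points). Itgal, the alpha chain of the integrin LFA-1, was at 29.9% and 54.3% and stood beside Ccr9 at the upper end, while S1pr1, S1pr4 and Itga6, a laminin receptor chain (27.0% and 16.5%), were at the lower end. Of 25 genes of activated, helper and regulatory T cells only Tox was listed, of 22 cytotoxic and natural killer genes only Ctsw, a cathepsin of cytotoxic lymphocytes (13.8% and 28.7%), and of 15 genes of innate-like lymphocytes none.

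Interferon-stimulated genes were 7 lower and 2 higher among the 9 listed of 53, with a median of -8.3 points, beside 103 of 450 lower over all listed genes. Of the 7, 4 were lower by at least 10 points (12.7% over all listed genes), and Slfn2, Ifi27l2a and Ly6e differed by -8.3, -2.9 and -1.7 points. Ly6a (Sca-1) was at 46.5% in the control library and 31.7% in the depleted-labelled library, Ifitm2, a restriction factor of viral entry, at 91.2% and 76.5%, Slfn1, a Schlafen protein of lymphocytes, at 61.9% and 50%, and Ifi209, of the IFI200 family, at 49.1% and 38.3%. In the other direction, Gbp4, a guanylate-binding protein, was at 13.5% and 27.4%. Immediate early and feedback genes were split as well, with 5 higher and 3 lower among the 8 listed of 32 (median 4.8 points). Tsc22d3, the glucocorticoid-induced GILZ, was at 70.4% and 54.3%, next to Pim1, while the phosphatases Dusp1 (14.2% and 31.7%) and Dusp2 (20.4% and 38.3%) were higher. All 9 listed splicing and hnRNP genes were higher, 5 of them by at least 10 points (55.6%, the same share as over all listed genes), and their median of 10.3 points lay below that of all listed genes. Hnrnph1 had the largest difference among them, at 27.7% and 51.7%. Over its members at 90% of cells or less in both libraries, the median of the splicing list was 12.7 points.

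Ribosomal protein genes made up 46 of the 450, and 43 of them had the same share in both libraries, so their shares give no direction. The 3 lower ones were Rps27rt, an intronless relative of Rps27 (63.5% and 36.5%), Rps6 (99.1% and 93.5%) and Rpl21 (100% and 99.6%). Of 3 proteasome and ubiquitin genes with higher shares, Ube2s, a ubiquitin conjugating enzyme, was at 43.4% and 62.6%. Of 3 listed cell cycle genes, Stmn1, a microtubule destabiliser of dividing cells, was at 29.9% and 43.5%, while Hmgb1 and Ptma stood at 99.1% or more in both libraries. Of 26 MHC class I presentation genes 3 were listed, and H2-K1 and H2-D1, the classical chains, were at 99.6% or more in both. Xist, the RNA of X inactivation, was at 98.4% and 99.1%. The heat shock list had 2 listed genes, both higher, and the lists of translation factors (7 listed), actin cytoskeleton (6) and respiratory chain genes (3) had medians of 0.0, -0.2 and -0.4 points, most of their members being near 100% in both libraries. Hif1a, the hypoxia-inducible transcription factor, was at 21.1% and 36.5%.

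**Figure D4:**
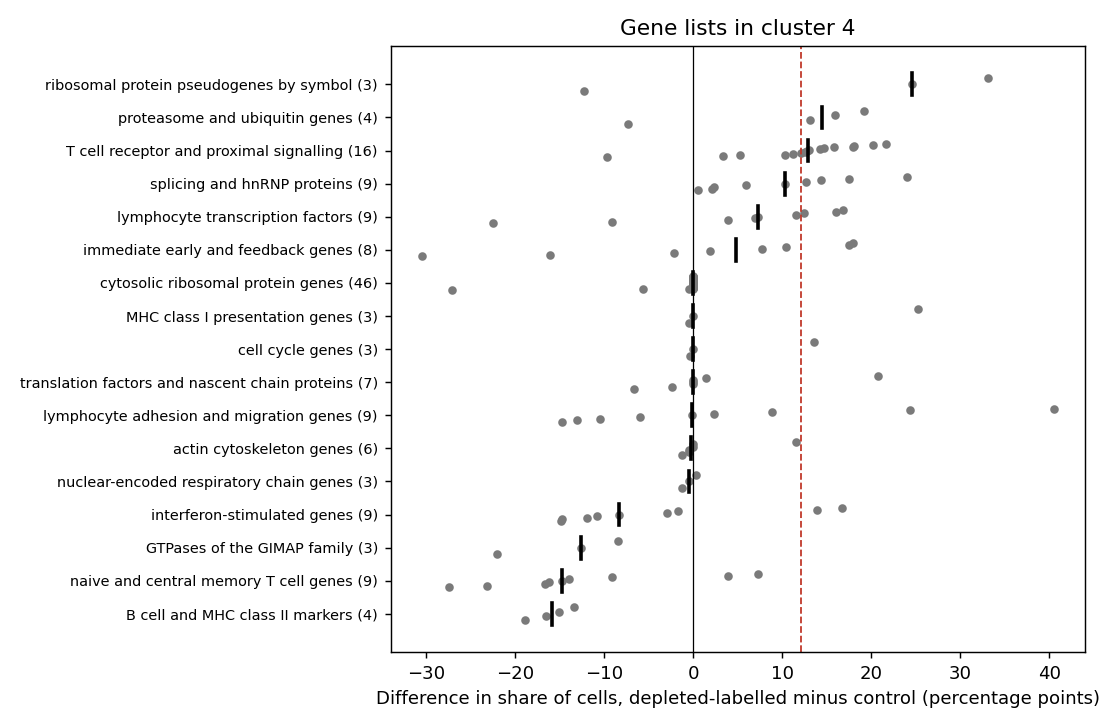
Difference in the share of cluster 4 cells, depleted-labelled library minus control (x axis, percentage points), for the members of each gene list with at least 3 listed genes, with the number listed in parentheses. Grey points are genes, black bars are medians of the lists, the solid line is 0 and the dashed line is the median of all 450 listed genes, 12.15 points. The naive and MHC class II lists lie mainly to the left of 0, and the receptor list lies around the dashed line.

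Some genes were listed for most clusters and not for T cells in particular. The strain background of the animals was not given in the sources used here, and with 1 library per genotype strain background, genotype and library cannot be told apart. In all, 46 of the 450 genes were listed in 9 or more of the 17 other tables, against 25 listed in none, 114 in 1 or 2 and 265 in 3 to 8. The median difference in cluster 4 was 0.0 points for the 46, beside 10.6 points for the 265 and 14.5 points for the 114. Ftl1-ps2 (chromosome 10, 130428026 to 130428574), a processed pseudogene of the ferritin light chain gene, was the only gene listed in all 18. It was detected in 1.6% of control cells and 50% of cells of the depleted-labelled library in cluster 4, the largest difference of the cluster at 48.4 points, and over all tables from 0.0% to 5.2% and from 28.3% to 100%. Ftl1, the functional gene, was at 100% in both libraries of cluster 4.

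BC018473 (chromosome 11, 116642993 to 116650199), a long noncoding RNA gene, went the other way. In cluster 4 it was detected in 31.4% of control cells and in 0.0% of cells of the depleted-labelled library. In the 16 tables that list it, the control share lay between 29.0% and 100% and the other between 0.0% and 1.1%. Mettl23, a methyltransferase family gene at 116733456 to 116745089 on the same chromosome, was at 16.7% and 40.9% in cluster 4 and from 16.7% to 40.6% and from 40.7% to 72.7% over the 11 tables that list it.

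Ribosomal protein pseudogenes were also listed in many tables, and a pair of copies of 1 gene differed in opposite directions. Gm7429 (chromosome X, 113890667 to 113891014) was detected in 3.8% of control cells and 46.5% of cells of the depleted-labelled library, and Gm12191 (chromosome 11, 49569537 to 49569884) in 52.2% and 30.4%. Both copy the whole coding sequence of Rpl30, a ribosomal protein gene on chromosome 15 that cluster 4 does not list, with 4 and 1 differences over 348 bases. Over the 14 tables that list it, Gm7429 lay between 0.0% and 9.4% in the control library and between 29.7% and 60.4% in the depleted-labelled library. Gm12191 lay between 37.5% and 68.1% and between 7.7% and 39.6% over its own 14.

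Rpl27a-ps4 was at 54.7% and 87.8%, Gm15682, a copy of Rpl21, at 70.4% and 90.9%, and Rpl34-ps1 at 9.7% and 34.3%. Each was 98.6% or more identical to its functional relative. Across the 16 tables that list Rpl34-ps1 the control library lay between 0.0% and 29.4% and the other between 32.9% and 72.7%. Rps6-ps4, listed in 8 other tables, had no mismatch to Rps6 over 750 bases and was at 63.5% and 51.3%. Among functional genes listed in 9 or more other tables, Polr2k, a subunit shared by the RNA polymerases, was at 14.5% and 32.2% and was listed in 14 other tables, and the interferon-stimulated Ifi27l2a, listed in 13, was at 95.9% and 93.0%. Over the tables that list Ifi27l2a its differences ran from -3.9 to 67.4 points, so cluster 4 lay near the lower end. Reads of the pseudogene copies can be shared with their parent genes, so their values are uncertain as measures of either gene.

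**Figure D5:**
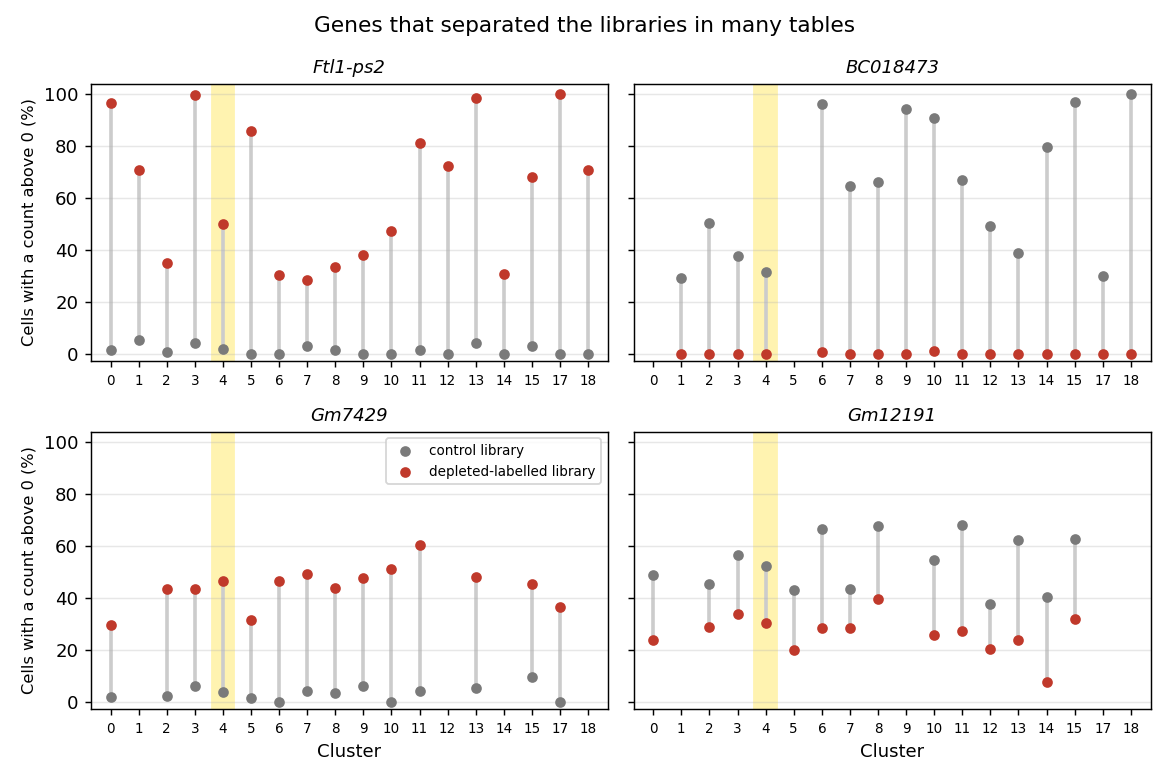
Share of cells with a count above 0 (y axis, %) for 4 genes in every cluster table that lists them (x axis, cluster number), with the control library in grey and the depleted-labelled library in red, and cluster 4 shaded. The grey points of Ftl1-ps2 lie at 5.2% or below and the red points of BC018473 at 1.1% or below in every table shown.

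Called genes that lay within 200 kb of each other formed 21 groups. All members were higher in 13 groups and lower in 5, and 3 were mixed, while 81.4% of all called genes were higher. The largest, on chromosome 6, held Ptpn6, Cd4, Ptms, Chd4 and Cd27, all 5 higher, and a trio on chromosome 7 held the TRIM genes Trim34a, Trim12a and Trim12c, all higher. Glo1, a glyoxalase (19.5% and 37.0%), and its neighbour Dnah8, an axonemal dynein (9.7% and 33.5%), lay on chromosome 17 with Abcg1, all higher. Ms4a4b, Ms4a6c and Ms4a6b on chromosome 19 were all lower, Ms4a6c at 84.6% and 69.1%, and so were Gimap1 and Gimap3 on chromosome 6 and Ly6a and Ly6c1 on chromosome 15. In the mixed groups Brd2 was higher beside the lower H2-Ab1, H2-Aa and H2-Eb1 on chromosome 17, BC018473 lower beside Mettl23 and Srsf2 on chromosome 11, and Atp1b3 and Rasa2 on chromosome 9 differed in direction. These groups are families of related sequence in part, so their members may share reads.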

How the data were processed

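Single interstitial cells of 2 libraries (1 per genotype) were profiled on the 10x Chromium platform. The authors ran Cell Ranger 6.1.1 on a GRCm39 reference with added reporter sequences, combined the libraries without depth normalization and used Seurat, keeping genes with a UMI in at least 20 cells, removing low-quality clusters and outlying cells, normalizing with SCTransform and clustering at a resolution of 0.5. No doublet caller was named, so doublets may remain. The deposited tables hold, for each cluster and gene, the fraction of cells of each library with a corrected count above 0, printed here as a percent. Their fold change and p-value columns, which hold the authors' own comparison over cells, were not used. Every deposited column of shares was assigned to a sample (0 unmapped). The fibroblast subcluster tables were not used here.

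From the fractions were computed, with Python 3.11.15 and pandas 2.3.3, the difference between libraries for each gene, the number called at 10 points, the tables that list each gene, and counts and medians for gene lists. Scripts were tested on simulated tables. Named genes were the 15 largest differences in each direction, the 10 and 5 largest among genes listed alone and among those shared only with T cell clusters, the 5 listed in most tables, list members, and genes with opposite directions in T cell clusters. A pseudogene was named with the gene it copies. The members and lists were chosen with earlier results of these data known. Positions came from GENCODE annotation of GRCm39 (441 of 450 matched), and pseudogene relatives from blastn 2.17.0 against its protein-coding transcripts. Alternatives were another limit (5 or 20 points), a log2 ratio of shares, centring, filters on shares and on ribosomal genes, and other sets of tables.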

Additional observations from a re-analysis of the deposited data

Results flagged for a closer look

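Among the 284 genes listed for cluster 4 and for another T cell cluster, 10 differed by at least 15 points between the libraries in both, in opposite directions. The limit of 15 points was chosen after the values were seen, and the difference between clusters was not tested. Each was higher in the depleted-labelled library in cluster 4, where 81.4% of all genes called at 10 points were higher. Itgal, the LFA-1 alpha chain, was 24.4 points higher in cluster 4 and in cluster 10 stood at 54.5% in the control library and 35.5% in the other, while in cluster 8 it was at 29.8% and 41.7%. Gm40309 differed by 22.4 points in cluster 4 and by -30.7 points in cluster 10. Nucb1, a calcium-binding Golgi protein, differed by 19.1 and -29.2 points, Glcci1 by 19.7 and -16.2 points, Tnrc6a, a scaffold of microRNA silencing, by 18.9 and -16.8 points, Arhgap30, a GTPase activating protein, by 18.9 and -15.1 points, and Top2b, a topoisomerase, by 15.2 and -16.1 points, again in clusters 4 and 10. Cluster 8 also listed Arhgap30, 18.3 points higher, and Top2b, 7.4 points higher. In the same cluster, Fmnl1, a formin of blood cells, differed by -20.9 points against 18.8 in cluster 4, and Vdac1, the mitochondrial outer membrane channel, by -15.1 against 19.6 points. In cluster 7, Birc6, an inhibitor of apoptosis, differed by -15.7 points against 18.5 in cluster 4. Of these 10 genes 7 rest on cluster 10, whose control shares take 12 distinct values.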

How the results depend on the processing

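No paired analysis was possible because each genotype had a single library, and none could be left out. The 250 genes higher and 57 lower by at least 10 points became 56 and 15 at 20 points and 32 and 172 when differences were centred on the median of 12.15 points. Requiring 25% of cells in both libraries left 130 called higher, and 170 in place of 291 higher at any size. The log2 ratio of shares left 28 called lower. Centring gave 225 lower genes in place of 103, and a limit of 90% of cells in both libraries gave 67. The 25 genes listed alone became 45 without the tables of clusters 6, 9 and 10 and 52 without the 3 longest other tables. Gene lists of at least 3 members with a median above 0 numbered 6, but 3 when centred and 11 with members at 90% of cells or less. Those below 0 numbered 7, but 14 when centred. Centring put 25 of the 250 genes called higher below 0, Chd4 at -1.35 among them, and turned the called difference of Lck to -1.85, Cd28 to -0.95, Cd2 to -0.05, Ikzf1 to -0.65, Zfp36l1 to -1.75, St13 to -0.15, Capza1 to -0.65 and Srsf5 to -1.85 points, and the medians of the splicing, transcription factor and immediate early lists to -1.85, -4.85 and -7.35. The remaining alternatives for these counts stayed within 1.5 times. Centring puts an equal number of genes on each side of 0 by construction, so it says nothing about the upward balance. A share near 100% cannot show a higher level and the unknown depth per cluster limits every value.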
